A study of Homo sapiens with 9 samples.

Results

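The expression of 10 mucin genes (MUC1, MUC2, MUC4, MUC5AC, MUC5B, MUC6, MUC13, MUC16, MUC17 and MUC20) was examined in 3 sublines of the human pancreatic ductal adenocarcinoma cell line SUIT-2. The genes were taken as a named list, by a rule that used no measured value although earlier results of these data were known, and all 10 had a row among the 42717 genes of the deposited count table. S2-028 cells carried the most MUC5AC, MUC5B, MUC16 and MUC20 mRNA, S2-007 cells carried the most MUC13 mRNA, and MUC1 mRNA was lowest in S2-020 cells, in which none of the 10 mucins was higher than in S2-007 cells by the test used. The reads counted for MUC20 are the least certain to be its own.

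Mucins are large glycoproteins whose protein backbone is densely covered with O-linked sugar chains, added onto serine and threonine residues of tandem repeats. The secreted gel-forming mucins MUC2, MUC5AC, MUC5B and MUC6 polymerise through disulfide bonds and build the mucus layer, whereas MUC1, MUC4, MUC13, MUC16, MUC17 and MUC20 are treated here as membrane mucins, which form a barrier at the cell surface and carry signals through their cytoplasmic tails. Normal pancreatic ducts contain little MUC5AC, and MUC5AC and MUC4 are known for their appearance in pancreatic precursor lesions and cancer. MUC16 carries the serum antigen CA125 and binds mesothelin.

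Each subline was sequenced as 3 libraries from cells grown in DMEM with inactivated serum, and the labels name no treatment and no genetic change. In the study, S2-007 was the model with maspin in both the nucleus and the cytoplasm, S2-028 was the model with maspin in the cytoplasm, and S2-020 was described as low in endogenous maspin. All 3 are sublines of 1 parental line, so a difference between them is a difference between these cell lines and cannot be told apart from any other property in which the sublines differ. The labels do not say whether the 3 libraries of a line came from separate cultures, and p-values therefore measure the spread between these libraries, which may be technical.

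Total counts were between 60328748 and 86253923 per library, and the S2-028 libraries were the shallowest (60328748 to 61800271). Of the small counts of 10 or more, between 61.9% and 63% were even in each library, more than an equal split would give. Independent fragments may thus be fewer than the reads counted, and the cause was not tested. The floor of 3 counts used below and the bounds that rest on it make no allowance for this. No library pair looked like the same library deposited again, since the chi-square statistic per gene ranged from 8.41 to 23.7 for pairs from the same line, against 231 to 351 for pairs from different lines. The ductal epithelial markers (7 genes, which are 4 keratins, EPCAM, CDH1 and SOX9) summed to between 9760 and 10100 CPM (TMM-normalized counts scaled to library size) in S2-007, between 4340 and 5480 CPM in S2-020 and between 15100 and 17900 CPM in S2-028. The 8 acinar and endocrine markers summed to at most 1.8 CPM in any library. The 10 fibroblast, endothelial and leukocyte markers summed to between 50.4 and 53.6 CPM in S2-007 and between 18 and 22.6 CPM in the other lines, of which CD68 made up 41.6 CPM in S2-007, and CD3E was at 0 in all S2-007 libraries. The S2-007 library of replicate 1 stood apart for the mucins, as it held the highest of the 3 S2-007 values for 8 of the 10 genes, whereas it was the highest of 3 for 35.1% of all 28019 genes expressed. Its part in the results was measured by leaving it out, and calls that were lost without it are named beside the result. In bulk RNA, fewer cells expressing a mucin and less mucin mRNA per cell cannot be told apart.

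A differentially expressed gene (DEG) had an adjusted p under 0.05 in the edgeR quasi-likelihood F-test (Benjamini-Hochberg, over all genes tested) and differed by 1.5-fold or more, which is 0.585 on the log2 scale. All 10 mucins passed the filter on low counts in all 3 comparisons. In S2-028 against S2-007, 7 of the 10 were DEGs, of which 4 were upregulated (MUC5AC, MUC5B, MUC16, MUC20) and 3 downregulated (MUC1, MUC4, MUC13). Of all 26371 genes tested in that comparison, 18.4% were DEGs, with 10.2% upregulated and 8.19% downregulated. The 10 mucins had a median log2 fold change of 0.12, with values from -6.12 to 2.4, and the median of all genes was 0. Without S2-007 replicate 1, 5 mucins were called in this comparison, as MUC1 and MUC4 were lost.

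In S2-020 against S2-007, 5 of the 10 mucins were DEGs (MUC1, MUC4, MUC13, MUC16, MUC17), and all 5 were downregulated. The background was 21.6% of 26657 genes, with 12.1% downregulated and 9.57% upregulated. The 5 are all membrane mucins, and none of the 4 secreted mucins passed the test. However, MUC2 and MUC6 had at most 64 reads per library in these lines. The interval of MUC5B was -1.58 to 0.18, so changes in these secreted mucins may have been missed. The median log2 fold change of the mucins was -1.4, against -0.05 for all genes. Without the S2-007 library of replicate 1, 3 mucins remained called in this comparison (MUC1, MUC13 and MUC16).

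In S2-028 against S2-020, 6 of the 10 mucins were DEGs, with MUC1, MUC5AC, MUC5B, MUC16 and MUC20 upregulated and MUC13 downregulated. The background was 22.2% of 26031 genes, with 12.1% upregulated and 10.1% downregulated, and the median log2 fold change was 1.72 for the mucins and 0.02 for all genes. The 3 comparisons share libraries, so their counts are not independent of each other. The libraries of the lines compared did not overlap for 6, 4 and 7 of the 10 mucins in the order given above, against 43.7%, 48.8% and 48.6% of all genes tested.

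**Figure D1:**
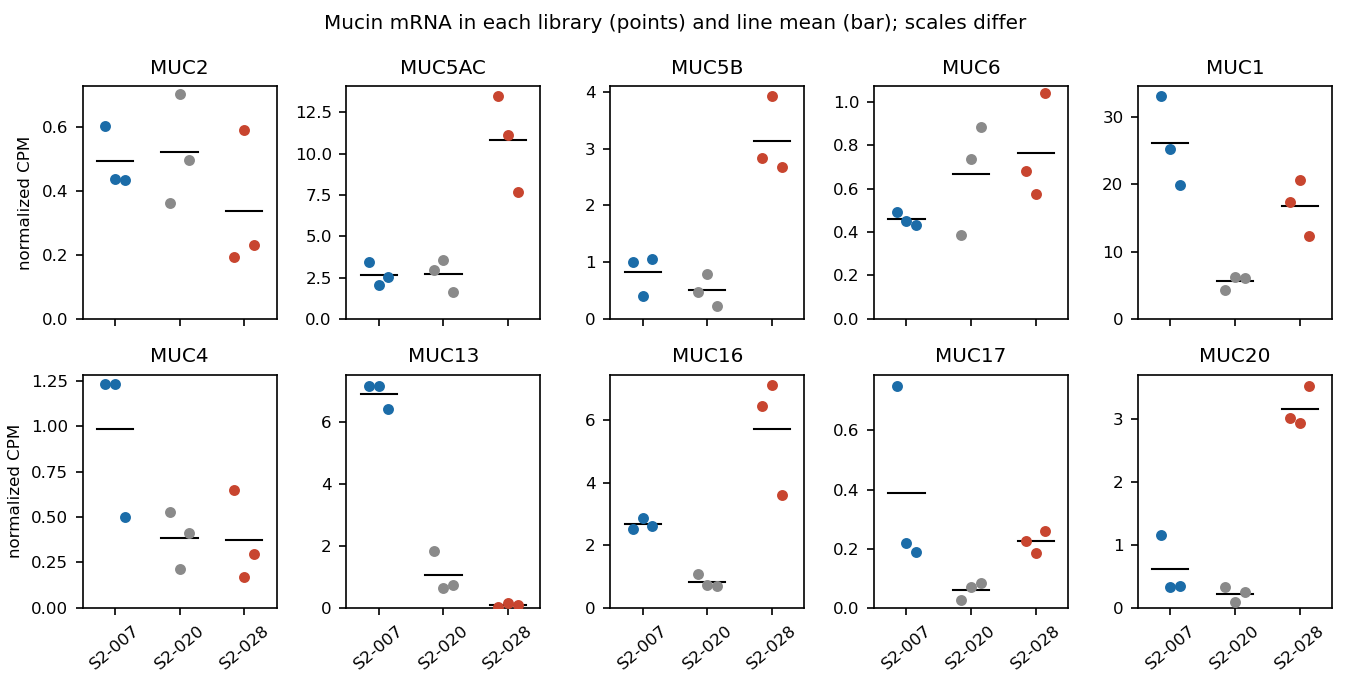
Normalized CPM of the 10 mucin genes in each library (points) and the mean of each line (bar), with a separate vertical scale for each gene. The 3 S2-028 libraries lie above all other libraries for MUC5AC, MUC5B, MUC16 and MUC20, and the 3 S2-007 libraries lie above all others for MUC13.

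**Figure D2:**
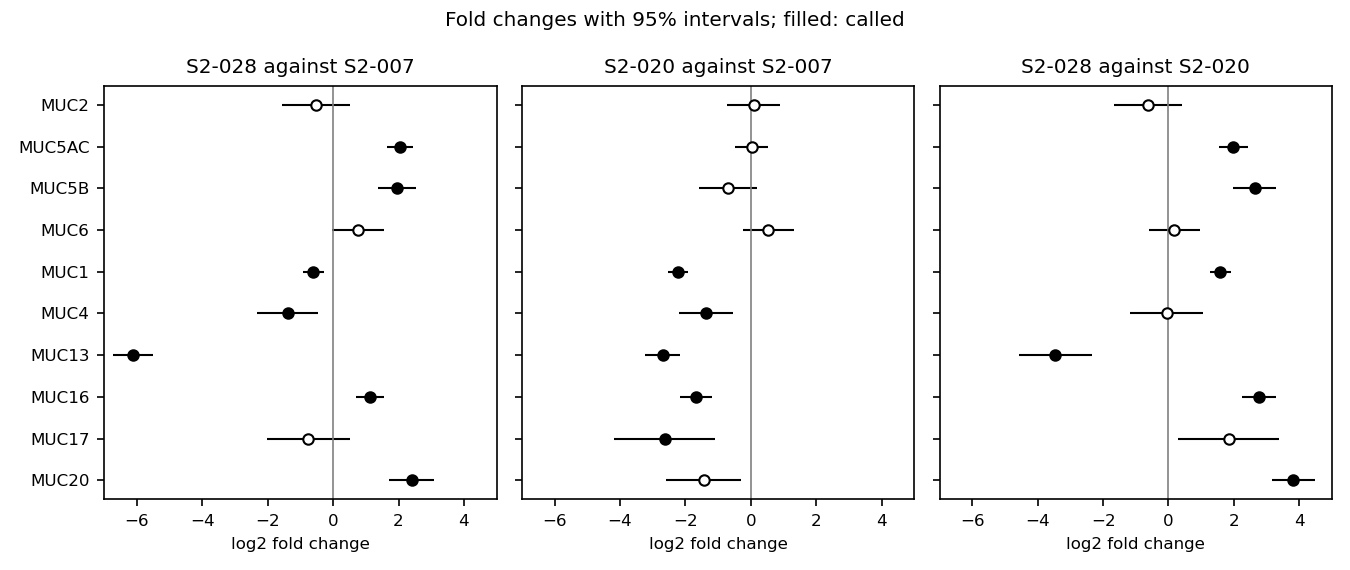
Log2 fold changes of the 10 mucin genes in the 3 comparisons, with 95% intervals as horizontal bars. Filled points are DEGs, which number 7, 5 and 6 from left to right, and open points did not pass the test.

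Among the secreted mucins, MUC5AC, the main gel-forming mucin of the stomach surface, was the most abundant by reads per gene in every line. It lies on chromosome 11 at chr11:1157953-1201138 (GRCh38.p14). Its normalized level was 3.44, 2.02 and 2.52 CPM in the 3 S2-007 libraries, 2.95, 3.55 and 1.63 CPM in those of S2-020, and 13.5, 11.1 and 7.7 CPM in those of S2-028. The lowest S2-028 library was therefore above the highest library of either other line. MUC5AC was upregulated in S2-028 by a log2 fold change of 2.04 (SE 0.205, adjusted p = 5.66e-08, edgeR) against S2-007 and 1.98 (SE 0.23, adjusted p = 6.9e-07) against S2-020. Between S2-020 and S2-007 the log2 difference was 0.03, with a 95% interval from -0.48 to 0.53, and the libraries overlapped. The order was S2-028 above the other lines, and S2-020 (2.71 ± 0.985 CPM, SD, n = 3) and S2-007 (2.66 ± 0.721 CPM) did not differ beyond their spread.

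MUC5B, the gel-forming mucin of the airway and of several glands, lies next to MUC5AC at chr11:1223066-1262172. It was measured at 0.998, 0.41 and 1.06 CPM in S2-007, at 0.471, 0.796 and 0.234 CPM in S2-020, and at 2.83, 3.92 and 2.68 CPM in S2-028. All S2-028 libraries were above all libraries of the other lines, whereas those of S2-007 and S2-020 overlapped. MUC5B was upregulated in S2-028 by a log2 fold change of 1.96 (SE 0.302, adjusted p = 2.04e-05, edgeR) against S2-007 and 2.63 (SE 0.334, adjusted p = 2.23e-06) against S2-020. In S2-020 against S2-007 the value was -0.7, with an interval from -1.58 to 0.18, and did not pass the test (adjusted p = 0.247, edgeR). Of the exon bases of MUC5B, 2.3% lie under MUC5B-AS1 on the opposite strand, and whether the reads were counted by strand is not given in the sources used here. MUC5B-AS1 itself had a count of 0 in 8 of the 9 libraries and 4 in S2-028 replicate 2. In the reference transcripts, 30.9% of the 31-base words of MUC5AC and 36.4% of those of MUC5B occur more than once within the same transcript, while 0.7% of the words of either gene are found in the other. How the authors counted reads with several matches is not given in the sources used here.

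The other gel-forming mucins of the cluster were low in all lines. MUC6, the mucin of the deep gastric glands and duodenal glands (chr11:1012823-1036718), averaged 0.459 ± 0.03 CPM in S2-007, 0.669 ± 0.254 CPM in S2-020 and 0.766 ± 0.247 CPM in S2-028 (SD, n = 3). Its 3 S2-028 libraries (0.68, 0.573 and 1.04 CPM) were above the 3 S2-007 libraries (0.492, 0.451 and 0.434 CPM), but the log2 difference of 0.76 had an interval from -0.03 to 1.55 and did not pass the test (adjusted p = 0.169, edgeR). MUC2, the mucin of intestinal goblet cells (chr11:1074874-1110508), averaged 0.491 ± 0.0958, 0.519 ± 0.172 and 0.337 ± 0.218 CPM, in the same order of lines, and its libraries overlapped in every comparison. For MUC2 the intervals were -1.55 to 0.53 in S2-028 against S2-007, -0.73 to 0.9 in S2-020 against S2-007 and -1.66 to 0.41 in S2-028 against S2-020. With counts between 12 and 64 per library, differences of the size of these intervals were not detectable in MUC2 or MUC6 at this depth.

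The 4 secreted mucins lie side by side on chromosome 11 in the order MUC6, MUC2, MUC5AC, MUC5B. The nearest tested protein-coding genes are AP2A2, a subunit of the endocytic adaptor AP-2, which ends 0.583 kb before MUC6, and TOLLIP, an adaptor of Toll-like receptor signaling, which starts 12.2 kb after MUC5B. Neither was a DEG in any of the 3 comparisons. In S2-028 against S2-007, the log2 fold change was 0.15 for AP2A2 and -0.22 for TOLLIP, whereas it was 2.04 and 1.96 for MUC5AC and MUC5B. In S2-028 against S2-020, AP2A2 was at -0.32 and TOLLIP at 0.18. The large differences of the cluster were therefore measured in 2 of its 4 mucins and not in the genes on either side.

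**Figure D3:**
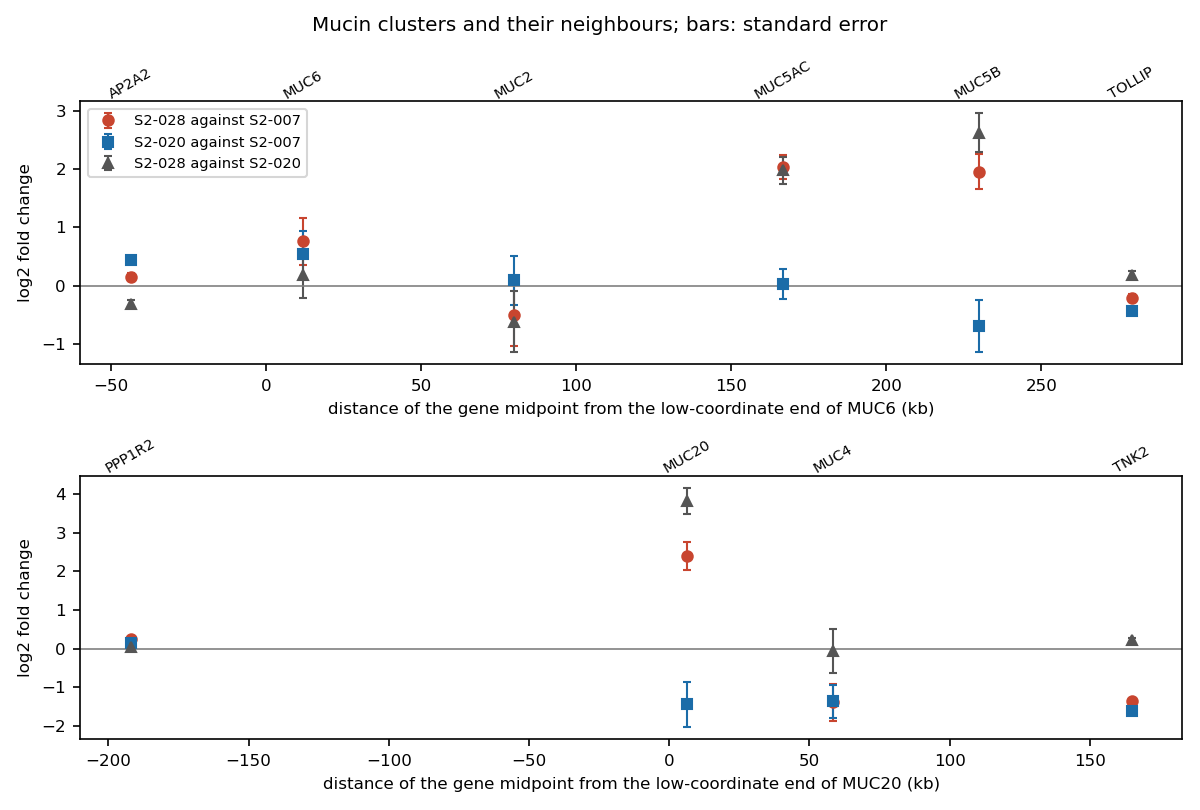
Log2 fold changes with standard errors (vertical bars) of the mucins and their nearest tested neighbours, against the distance of the gene midpoint in kb, for the chromosome 11 cluster (top) and the MUC20 and MUC4 pair on chromosome 3 (bottom). In S2-028 against S2-007, MUC5AC (2.04), MUC5B (1.96) and MUC20 (2.4) lie above 0, while MUC4 (-1.39) and TNK2 (-1.35) lie below it.

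Among the membrane mucins, MUC1, the widely expressed epithelial mucin whose cytoplasmic tail binds β-catenin and receptor kinases, had the most reads in every line. It lies on the minus strand at chr1:155185824-155192915. Its level was 33.2, 25.3 and 19.9 CPM in the S2-007 libraries, 4.35, 6.18 and 6.15 CPM in those of S2-020 and 17.4, 20.7 and 12.3 CPM in those of S2-028. The S2-020 libraries lay apart below all others, whereas 1 S2-028 library (20.7 CPM) was above the lowest S2-007 library (19.9 CPM). MUC1 was downregulated in S2-020 against S2-007 by a log2 fold change of -2.23 (SE 0.159, adjusted p = 4.55e-10, edgeR) and was higher in S2-028 than in S2-020 by 1.59 (SE 0.17, adjusted p = 2.24e-07). The difference between S2-028 and S2-007 was small, at -0.61 (SE 0.162, adjusted p = 0.0049, edgeR), just past the fold threshold. That call was lost with DESeq2 (adjusted p = 0.0858), without S2-007 replicate 1 (log2 fold change -0.4, adjusted p = 0.0636, edgeR) and without S2-028 replicate 3 (-0.43). The neighbour of MUC1 on one side, TRIM46, lies 0.853 kb away. It was upregulated in S2-028 by 1.8 against S2-007, where MUC1 was lower, and by 1.2 against S2-020, where MUC1 was higher. In S2-020 against S2-007 TRIM46 was at 0.57 and not a DEG. THBS3, 2.67 kb away on the other side, was not a DEG in any comparison, with log2 values between -0.5 and 0.08.

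MUC13, a short membrane mucin of the intestinal and gastric surface with EGF-like domains, showed the largest difference of the 10 genes in both comparisons with S2-007. It lies on the minus strand at chr3:124905442-124934751. Its level was 7.16, 7.16 and 6.4 CPM in S2-007, 1.83, 0.642 and 0.744 CPM in S2-020, and 0.0324, 0.155 and 0.0979 CPM in S2-028. These last values rest on 2, 10 and 6 reads, the first of which is under the floor of 3 counts that was taken as the detection limit (counting error only). No libraries of any pair of lines overlapped, so the order was S2-007, S2-020 and S2-028 from high to low. The log2 fold change was -6.12 (SE 0.306, adjusted p = 8.68e-13, edgeR) in S2-028 against S2-007, which is a 69.5-fold lower level, and -2.7 (SE 0.275, adjusted p = 9.31e-08) in S2-020 against S2-007. In S2-028 against S2-020 it was -3.46 (SE 0.57, adjusted p = 4.9e-05, edgeR). S2-020 replicate 1 held more MUC13 reads (132) than the other S2-020 libraries (54 each), and without it the value was -3.32 in S2-020 against S2-007 and -2.85 in S2-028 against S2-020, with both calls kept. Its neighbour HEG1, a mucin-like receptor of endothelial junctions lying 31 kb away, was upregulated by 1.41 in S2-028 and by 3.99 in S2-020 against S2-007, where MUC13 was downregulated, and was downregulated by -2.61 in S2-028 against S2-020, as MUC13 was. ITGB5, integrin β5, on the other side, was upregulated by 0.6 in S2-028 against S2-007 and was not a DEG in the other comparisons.

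MUC16, the carrier of CA125 and the longest of the 10 transcripts (43816 bases), lies on the minus strand at chr19:8848844-9065751. It was measured at 2.51, 2.88 and 2.6 CPM in S2-007, at 1.08, 0.713 and 0.703 CPM in S2-020 and at 6.46, 7.12 and 3.59 CPM in S2-028. The lines did not overlap in any pair, and the order was S2-028, S2-007 and S2-020. MUC16 was upregulated in S2-028 by 1.13 (SE 0.216, adjusted p = 0.000249, edgeR) against S2-007 and by 2.78 (SE 0.262, adjusted p = 4.12e-08) against S2-020, and was downregulated in S2-020 against S2-007 by -1.68 (SE 0.244, adjusted p = 1.01e-05). The flanking genes ZNF558, a zinc-finger gene, and OR1M1, an olfactory receptor gene, were not DEGs in any comparison, with log2 values between -0.47 and 0.44.

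The sequences just before the start of MUC1, MUC13 and MUC16 are shown because these are the membrane mucins with the most reads in S2-007. Each is the 250 bases before an annotated start in RefSeq (GRCh38.p14), 5′ to 3′ on the gene's strand, and capitals mark matches to any of 6 searched motifs.
MUC1, chr1:155192916-155193165, minus strand: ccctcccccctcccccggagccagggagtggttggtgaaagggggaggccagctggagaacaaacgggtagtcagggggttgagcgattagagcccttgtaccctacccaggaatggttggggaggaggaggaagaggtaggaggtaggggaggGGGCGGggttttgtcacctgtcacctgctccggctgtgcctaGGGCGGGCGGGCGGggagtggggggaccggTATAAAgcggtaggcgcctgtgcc
MUC13, chr3:124934752-124935001, minus strand: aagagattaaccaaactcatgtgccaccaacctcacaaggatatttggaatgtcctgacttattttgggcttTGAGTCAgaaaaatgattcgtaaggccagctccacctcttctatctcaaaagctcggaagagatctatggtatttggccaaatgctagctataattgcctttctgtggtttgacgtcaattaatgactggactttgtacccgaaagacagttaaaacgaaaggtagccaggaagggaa
MUC16, chr19:9065752-9066001, minus strand: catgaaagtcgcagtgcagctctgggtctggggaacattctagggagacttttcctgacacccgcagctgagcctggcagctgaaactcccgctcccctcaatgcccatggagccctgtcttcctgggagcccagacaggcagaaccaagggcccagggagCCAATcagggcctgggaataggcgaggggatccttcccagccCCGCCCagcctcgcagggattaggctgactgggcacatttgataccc
Each motif was searched on both strands, and N is any base. The TATA box (TATAAA) was in 10.7% of all 35116 promoter stretches of this length in the table. The CCAAT box (CCAAT) was in 32.0% of them. The GC box (GGGCGG), which binds SP1-type factors, was in 42.6%. The AP-1 site (TGANTCA) was in 6.57%. The GATA site (GATAAG) was in 5.65%. The FOX site (TGTTTNC) was in 15.5%. The MUC1 stretch held a TATA box whose first base is 24 bases before the start and 4 GC boxes, of which 3 overlap each other, and 66.0% of its bases were G or C. The MUC13 stretch held neither of these and had an AP-1 site 178 bases before the start, with 41.6% G or C, under the lower quartile of all promoter stretches (46.4%). The MUC16 stretch held a CCAAT box and, on the other strand, a GC box. MUC1 and MUC16 each have another annotated start, whose stretch is not printed. That of MUC1 (chr1:155192910-155193159) held the same motifs. That of MUC16 (chr19:9010410-9010659) held an AP-1 site and neither a CCAAT box nor a GC box, so the motifs of MUC16 depend on the start taken. These matches describe the letters only.

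MUC4, a large membrane mucin that binds ERBB2, was low in all lines. It lies on the minus strand at chr3:195746771-195811929, and its level was 1.23, 1.23 and 0.501 CPM in S2-007, 0.526, 0.214 and 0.414 CPM in S2-020 and 0.647, 0.17 and 0.294 CPM in S2-028. The third S2-007 library lay within the range of the other lines, so no pair of lines was separated. MUC4 was called downregulated at -1.39 (SE 0.478, adjusted p = 0.0288, edgeR) in S2-028 against S2-007 and at -1.36 (SE 0.427, adjusted p = 0.0143) in S2-020 against S2-007. Both calls were lost when S2-007 replicate 1 or S2-007 replicate 2 was left out (log2 fold changes between -1.19 and -1.15), the first also without S2-028 replicate 2 (-1.04) or S2-028 replicate 3 (-1.25), and the second without S2-020 replicate 2 (-1.07). Without S2-028 replicate 1 the first was -2.06. Between S2-028 and S2-020 the value was -0.06, with a wide interval from -1.19 to 1.07.

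MUC20, a small membrane mucin known to bind the receptor MET, lies beside MUC4 on the plus strand at chr3:195720978-195733551. It was measured at 1.15, 0.328 and 0.352 CPM in S2-007, at 0.332, 0.0951 and 0.248 CPM in S2-020 and at 3.01, 2.94 and 3.53 CPM in S2-028. All S2-028 libraries were above all others, and the libraries of S2-007 and S2-020 overlapped by a narrow margin. MUC20 was upregulated in S2-028 by 2.4 (SE 0.357, adjusted p = 1.34e-05, edgeR) against S2-007 and by 3.82 (SE 0.34, adjusted p = 1.77e-08) against S2-020. Without S2-007 replicate 1 the former was 3.24. In S2-020 against S2-007 the value of -1.44 did not pass the test (adjusted p = 0.0591, edgeR), but passed with the likelihood ratio test (adjusted p = 0.0373) and with all 9 libraries in the fit (adjusted p = 0.0153), and was -0.59 without S2-007 replicate 1. It was called in 3 of the 6 fits that left out 1 library, with values between -1.83 and -0.59.

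MUC20 is the member whose reads are least certain to be its own. Of its 31-base words, 81.1% also occur in transcripts of other genes and 42.3% in MUC20-OT1, a noncoding transcript that covers 27.1% of its exon bases on the same strand, and the table has no row for MUC20-OT1 or for the pseudogene MUC20P1. The commonest repeat word of MUC20 (57 bases) and that of MUC4 (96 bases) are shown because reads within such copies have several matches. They were read from the GENCODE reference transcripts and placed on GRCh38, in lower case with no base marked.
MUC20 repeat, first copy at chr3:195725165-195725221, plus strand: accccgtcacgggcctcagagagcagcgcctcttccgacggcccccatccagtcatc
MUC4 repeat, lowest copy at chr3:195781854-195781949, minus strand: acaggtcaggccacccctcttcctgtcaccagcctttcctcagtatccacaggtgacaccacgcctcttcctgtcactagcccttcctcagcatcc
The MUC20 word occurs in 10 exact copies in MUC20 and in 4 exact copies in MUC20P1, and the MUC4 word in 7 exact copies in MUC4. Of the 31-base words of MUC4, 42.8% occur more than once within the transcript. The nearest tested gene beyond MUC4 is TNK2, a kinase that binds CDC42, which was downregulated by -1.35 in S2-028 and by -1.6 in S2-020 against S2-007, whereas PPP1R2, a phosphatase inhibitor on the other side of MUC20, was not a DEG in any comparison. In S2-028 against S2-007, MUC20 and MUC4 thus had opposite signs although the genes are neighbours. The MUC4 call there was kept in only 2 of the 6 fits that left out 1 library, and its libraries overlapped.

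MUC17, an intestinal brush-border mucin at chr7:101020081-101058859, had the lowest CPM of the 10 genes in S2-007 and S2-020, and in S2-028 only MUC13 was lower. Its level was 0.752, 0.219 and 0.19 CPM in S2-007 (55, 16 and 14 reads), 0.0277, 0.0713 and 0.0827 CPM in S2-020 (2, 6 and 6 reads) and 0.227, 0.186 and 0.261 CPM in S2-028 (14, 12 and 16 reads). The S2-020 libraries were below all others. It was called downregulated in S2-020 against S2-007 at -2.63 (SE 0.782, adjusted p = 0.0101, edgeR), but the value was -1.71 and the call was lost without S2-007 replicate 1 (adjusted p = 0.217). In S2-028 against S2-020 the value of 1.85 did not pass the test (adjusted p = 0.0721, edgeR) although the libraries did not overlap, and it passed with the likelihood ratio test (adjusted p = 0.0238). In S2-028 against S2-007 the interval of the difference was -2.03 to 0.51. Its neighbour MUC12, the adjacent membrane mucin 1.14 kb away, was called downregulated in S2-028 against S2-007 (-1.14, adjusted p = 0.043, edgeR), a call that was lost without S2-007 replicate 1, and TRIM56 on the other side was not a DEG in any comparison.

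Levels can be compared between genes only per length, as reads per kilobase of the reference transcript scaled to library size (RPKM, n = 3). On this scale MUC1 was first in all lines, at 14.4 ± 3.69 RPKM in S2-007, 3.07 ± 0.579 in S2-020 and 9.28 ± 2.33 in S2-028, and MUC17 was last in all lines, at 0.0269, 0.00422 and 0.0156 RPKM. The second place was held by MUC13 in S2-007 (2.4 ± 0.153 RPKM) and in S2-020 (0.372 ± 0.228), and by MUC20 in S2-028 (1.27 ± 0.128), where MUC13 was eighth at 0.033 ± 0.0213 RPKM. MUC5AC followed MUC20 in S2-028 (0.617 ± 0.168 RPKM). MUC16, with the longest transcript, was at 0.0609 RPKM in S2-007, 0.019 in S2-020 and 0.131 in S2-028. In S2-007, the RPKM of MUC2, MUC16, MUC4, MUC6 and MUC5B, in that order, lay between 0.0459 and 0.117, and MUC16, MUC4, MUC6 and MUC5B among them overlapped between libraries. The places of MUC2 and MUC20 depend on the transcript taken, since all annotated exons together are 12667 bases for MUC2 against 4209 for the transcript used, and 6837 against 2493 for MUC20. With all exons, MUC20 fell to 0.462 RPKM in S2-028, under MUC5AC, and MUC2 to 0.0387 RPKM in S2-007. Of the 31-base words of the MUC1 transcript used (1811 bases), 0% were repeated within it. Its length may therefore leave out repeat copies, and the RPKM of MUC1 may be too high. The aligner does not join reads across introns, and the effect of this on levels between genes was not tested.

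**Figure D4:**
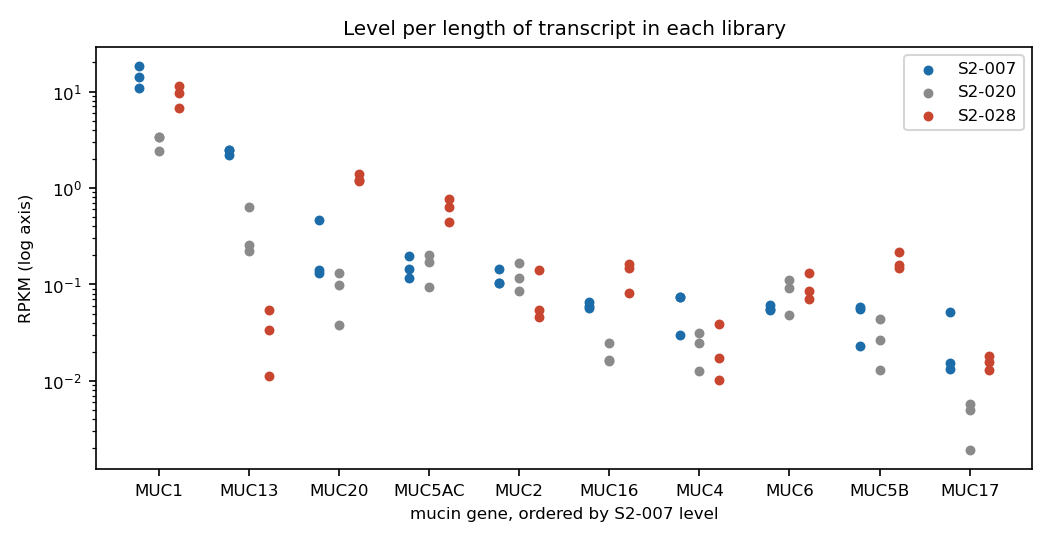
Level per length (RPKM, log axis) of each mucin gene in each library, with the genes in the order of their mean in S2-007 and 3 points for each line. MUC1 is first in all lines, MUC13 drops from 2.4 RPKM in S2-007 to 0.033 RPKM in S2-028, and MUC20 reaches 1.27 RPKM in S2-028.

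The reads of the mucins were also summed. The 4 secreted mucins together took 5.54, 3.32 and 4.45 CPM in S2-007, 4.17, 5.79 and 3.24 CPM in S2-020 and 17.2, 16.1 and 11.7 CPM in S2-028, so that every S2-028 library lay above every other. The 6 membrane mucins took 46, 37.1 and 30 CPM in S2-007, 8.14, 7.91 and 8.34 CPM in S2-020 and 27.8, 31.3 and 20.1 CPM in S2-028. The S2-020 libraries lay below all others, and those of S2-007 and S2-028 overlapped. All 10 together gave 42.2 ± 8.72 CPM in S2-007, 12.5 ± 1.07 in S2-020 and 41.4 ± 8.46 in S2-028 (SD, n = 3). MUC13 made up 6.91 CPM of this sum in S2-007 and 0.0951 CPM in S2-028, and MUC5AC made up 2.66 and 10.8 CPM.

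Of 12 further mucins and mucin-like genes, 9 were tested in each comparison. The share called was 33.3% in S2-028 against S2-007, 11.1% in S2-020 against S2-007 and 22.2% in S2-028 against S2-020. The shares of all genes tested were 18.4%, 21.6% and 22.2%, in the same order. In S2-028 against S2-007, 1 was upregulated and 2 downregulated, with a list median of -0.29. Without S2-007 replicate 1 neither downregulated gene was called, and 1 of the 9 remained. MUCL3, a mucin-like membrane gene, was at 0.0547, 0.191 and 0.0542 CPM in S2-007, 0.0554, 0.166 and 0.207 CPM in S2-020 and 0.647, 1.53 and 1.5 CPM in S2-028, and was upregulated in S2-028 by 3.62 (adjusted p = 1.2e-05, edgeR) against S2-007 and by 3.08 against S2-020. MUC3A, an intestinal membrane mucin, averaged 4.96 ± 0.465 CPM in S2-007, 0.937 ± 0.311 in S2-020 and 3.14 ± 0.482 in S2-028. It was downregulated by -2.4 in S2-020 and by -0.63 in S2-028 against S2-007 and was upregulated by 1.74 in S2-028 against S2-020, and it was the 1 gene of this list called in S2-020 against S2-007. The antisense gene MUC12-AS1 had log2 values between -0.23 and 0.39 and was not a DEG in any comparison.

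The enzymes that build the O-linked sugars of mucins were also divided between the lines. Of 31 tested in S2-028 against S2-007, 11 were upregulated and 5 downregulated, which is 51.6% of the list, with a median of 0.19. The numbers were 6 and 8 of 31 in S2-020 against S2-007 (median -0.19), and 10 and 5 of 31 in S2-028 against S2-020 (median 0.32). Of all genes tested, 10.2% were upregulated and 8.19% downregulated in S2-028 against S2-007. These shares were 9.57% and 12.1% in S2-020 against S2-007, and 12.1% and 10.1% in S2-028 against S2-020. GALNT5, a transferase that attaches the first sugar, fell from 191 ± 8.89 CPM in S2-007 to 6.79 ± 0.403 in S2-020 and 12.1 ± 1.62 in S2-028. GCNT3, which branches the chains of secreted mucins, fell from 129 ± 13 CPM in S2-007 to 3.26 ± 0.473 in S2-020 and 4.67 ± 0.733 in S2-028. Other first-sugar transferases went the other way in S2-028: against S2-007, GALNT3 was upregulated by 1.96, GALNT6 by 1.73 and GALNT7 by 1.67. GALNT10 was highest in S2-020 (173 ± 12.1 CPM), where it was upregulated by 2.53 against S2-007, as was GCNT4 by 4.03. B3GNT3, which extends the chains, was downregulated by -2.22 in S2-020 against S2-007, and ST3GAL2, a sialyltransferase, by -2.12 in S2-028 against S2-020.

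Genes of mucus secretion and of the goblet-cell and gut transcription programme were called for 11 of 20 tested in S2-028 against S2-007 (4 upregulated, 7 downregulated, median -0.43), 13 of 20 in S2-020 against S2-007 (1 and 12, median -1.06) and 13 of 19 in S2-028 against S2-020 (7 and 6, median -0.17). DEGs made up 18.4%, 21.6% and 22.2% of all genes tested in these comparisons, in that order. AGR2, the disulfide isomerase needed for folding of gel-forming mucins, was at 23.8, 26.4 and 21.3 CPM in S2-007 and 23.9, 23.8 and 15.6 CPM in S2-028, but at 0, 0.131 and 0 CPM in S2-020. TFF2, a trefoil peptide secreted with gastric mucus, was at 3.65, 4.03 and 3.25 CPM in S2-007 and 2.88, 1.83 and 1.89 CPM in S2-028, and had no read in the 3 S2-020 libraries, which is at least 95-fold lower than S2-007 and makes S2-028 at least 57.4-fold higher than S2-020, taking 3 counts per library as the floor. The medians were the same with such genes set at their bounds. HNF4A, a gut and liver transcription factor, was downregulated by -3.19 in S2-028 and by -3.05 in S2-020 against S2-007. FCGBP, a secreted partner of gel-forming mucins, fell by 4.25 and by 1.55 on the log2 scale in S2-028 and S2-020 against S2-007, although MUC5AC and MUC5B were upregulated in S2-028. FOXA2, a forkhead factor of the foregut, was upregulated in S2-028 by 2.41 against S2-007 and by 3.49 against S2-020, and FOXA3 by 4.62 against S2-020.

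Known partners and sheddases of membrane mucins were called for 7 of 20 in S2-028 against S2-007 (3 upregulated, 4 downregulated, median 0.14), 11 of 20 in S2-020 against S2-007 (1 and 10, median -0.74) and 13 of 20 in S2-028 against S2-020 (9 and 4, median 0.33). Among all genes tested, 18.4%, 21.6% and 22.2% were DEGs, in the same order. MSLN, mesothelin, the ligand of MUC16, averaged 123 ± 7.03 CPM in S2-007, 38.4 ± 1.36 in S2-020 and 4.26 ± 0.488 in S2-028, and so was lowest in the line in which MUC16 was highest. In S2-020 against S2-007, however, MSLN and MUC16 were both downregulated, each by -1.68. LGALS3, galectin-3, a lectin that binds MUC1, was downregulated by -1.29 in S2-028 and by -2.25 in S2-020 against S2-007. EGFR, a receptor that MUC1 binds, was upregulated by 1.46 in S2-028 and downregulated by -1.05 in S2-020 against S2-007. ERBB3 and JUP, plakoglobin, were lower in S2-020 than in S2-007 by -3.47 and -3.72. MMP14, a protease that sheds MUC1, was downregulated by -3.12 in S2-028 against S2-007. The other sheddases of the list went the other way: ADAM17 was upregulated by 0.68 in that comparison, and ADAM9, at 0.2, was not a DEG. The shares called in the O-glycosylation, goblet and partner lists were, like that of the 10 mucins, above the share of all genes tested in each comparison. That of the 9 other mucins was above it only in S2-028 against S2-007. No list was tested against another. In S2-020 against S2-007, 5 of the 7 ductal markers were lower by the test and none was called higher (median -2.15), with values from -4.4 for KRT19 to 0.52 for SOX9, and their part in the mucin results was not tested.

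**Figure D5:**
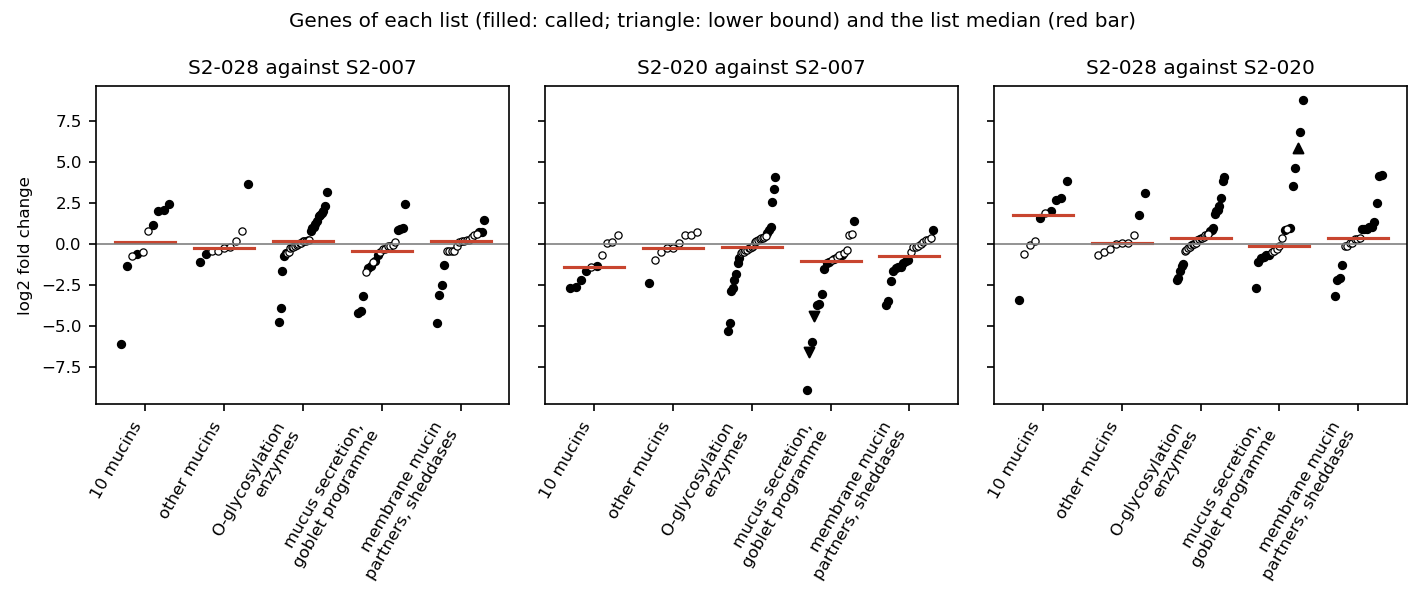
Log2 fold changes of the tested genes of each list in the 3 comparisons, with filled points for DEGs, open points for other genes and a red bar at the list median. Triangles are lower bounds for genes without a read in S2-020. The median of the 10 mucins is 0.12, -1.4 and 1.72 from left to right.

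The genes whose pattern was most like that of a mucin were found for the 3 members whose mean log2 CPM was 1 or more, by the root mean square (RMS) difference of centred log2 CPM over the 9 libraries among 14041 genes. For MUC1 they were MUC3A (RMS 0.21), GATM (0.21) and ATP2A3 (0.22). For MUC5AC they were TLCD4 (0.31), KIF12 (0.31) and VASN (0.35), and for MUC16 they were ZNF165 (0.27), IGFL2 (0.28) and CLDN4 (0.29). MUC3A and MUC1 thus shared the order S2-007, S2-028, S2-020, and TLCD4 averaged 8.84 CPM in S2-007, 9.17 in S2-020 and 40.5 in S2-028. The libraries of a line share their cells, so the 9 points are not independent.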

How the data were processed

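Strand-specific libraries from poly(A)-selected RNA of the 3 sublines (3 libraries each, grouped by their labels) were sequenced on an Illumina instrument. According to the study's methods and the submitters' processing notes, the authors trimmed reads with Trimmomatic 0.39 and aligned them to GRCh38.p14 with BWA 0.7.17, which does not join reads across introns. The authors deposited raw gene-level read counts, which are whole numbers. The deposited table also holds normalized signal columns, which were not used. The counting tool and its treatment of strand, overlapping genes and multiple matches are not given in the sources used here.

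Counts were tested in R 4.3.3 with edgeR 4.0.16 (filterByExpr at its defaults, count 10 and total 15, TMM, quasi-likelihood F-test), each comparison being fitted to its own 6 libraries, with Benjamini-Hochberg adjustment over all genes tested. The study's text names a likelihood ratio test and its result table a quasi-likelihood test, so the former was an alternative. Printed CPM use TMM factors of all 9 libraries, so their ratios can differ slightly from fold changes. Intervals cover 95%, and floors and intervals on counts cover counting error only, as PCR copies were not marked. Total counts were between 60328748 and 86253923. Lengths, shared 31-base words and exon overlaps came from GENCODE v44, positions and promoters from RefSeq tables of GRCh38.p14 (42539 of 42717 gene identifiers matched, 99.6%). Promoter entries of MUC5AC, MUC5B, MUC6 and MUC20 were not used.

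On simulated counts for S2-028 against S2-007 (25855 genes), 129 of 196 changed genes were recovered with 2 wrong calls: 7 of 56 at 1.5-fold, 33 of 51 at 2-fold, 45 of 45 at 4-fold and 44 of 44 at 8-fold. A true change of 1.5-fold lies at the fold threshold itself, so genes estimated under it could not be called whatever their p-value.

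The mucins and all lists were chosen with earlier results of these data known. Named genes were all 10 mucins, at most 5 called genes per list and comparison with the smallest adjusted p, all locus neighbours, the antisense genes in the table, and the 3 nearest genes by pattern. ADAM17 and ADAM9 were named outside this rule, to show all sheddases of the partner list. Alternatives were size factors or upper quartile in place of TMM, the likelihood ratio test, DESeq2 1.42.0, a test against a 1.5-fold change, no filter, a mean of at least 1 CPM, all 9 libraries in the fit, the replicate block, each library left out, and coding length. The length of all exons together was added after seeing the data.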

Additional observations from a re-analysis of the deposited data

How the results depend on the processing

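The number of mucins called was 5 to 7 in S2-028 against S2-007, 3 to 6 in S2-020 against S2-007 and 6 in S2-028 against S2-020 when each library was left out in turn, and 5 to 7, 3 to 6 and 5 to 7 under the other settings. With genes of a mean of at least 1 CPM, 3 of 4 tested mucins were called in S2-020 against S2-007, since fewer were tested, and without S2-007 replicate 1, 3 of 10 were. Among the 9 other mucins, 1 was called in S2-028 against S2-007 in a test against a 1.5-fold change and 1 with a mean of at least 1 CPM (3 tested), and 1 in S2-028 against S2-020 with that mean. Leaving out libraries gave 1 to 3 of them in S2-028 against S2-007 and 1 to 2 in S2-020 against S2-007, with 2 without S2-020 replicate 3.

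The calls on MUC5AC, MUC5B, MUC13, MUC16 and MUC20 in S2-028 against both lines, on MUC1 in S2-020 against S2-007 and in S2-028 against S2-020, and on MUC13 and MUC16 in S2-020 against S2-007 were kept under every setting in which the gene was tested. In a test against a 1.5-fold change, MUC1 (adjusted p = 0.864) and MUC4 (0.158) lost their calls in S2-028 against S2-007, and MUC4 (0.0968) in S2-020 against S2-007. MUC20 in S2-020 against S2-007 was also called without a filter (adjusted p = 0.0271, edgeR). Signs changed for values that were never called: MUC17 in S2-028 against S2-007 was 0.16 without S2-007 replicate 1 and -1.08 to 0.16 over all libraries left out, MUC5AC in S2-020 against S2-007 was 0 with a mean of at least 1 CPM, -0.01 with the replicate block and -0.22 to 0.29 with libraries left out, MUC2 in that comparison was -0.2 to 0.29, and MUC4 and MUC6 in S2-028 against S2-020 were -0.72 to 0.3 and -0.1 to 0.43. The causes were not tested.

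The replicate numbers did not pair the libraries, since same-numbered libraries of different lines deviated together with r between -0.0217 and 0.014 over 9 pairs. In 2 of these 9 pairs the library of the line named first was nearest to its own number. With the replicate block, 7, 5 and 6 mucins were called and no mucin call changed, and 2 of the other mucins were called in S2-028 against S2-007. With coding length, 8 of the levels per length moved by more than the spread, such as MUC13 to 4.49 RPKM in S2-007. Depth limits MUC2, MUC4, MUC6 and MUC17 in all lines, MUC13 in S2-028, MUC16 in S2-020, and MUC5B and MUC20 in S2-007 and S2-020, all with at most 90 reads per library.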
